A study of Saccharomyces cerevisiae with 8 samples.

Results

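Ribosome footprints were compared between yeast cells carrying targeted guide RNAs and yeast cells carrying control guide RNAs. The members were the 4 RIBO-seq libraries among the 8 libraries of the series, chosen by their titles alone: 2 of targeted and 2 of control cells. The cells were haploid BY4741, a laboratory strain of Saccharomyces cerevisiae of mating type a, and both groups carried the mCherry(K14UAG) reporter, in which a lysine codon is replaced by a premature UAG stop codon, together with a cassette that expresses guide RNAs. In the targeted cells the guides were PTC(K14ΨAG)-gRNA, directed at the premature stop codon, and tRNA_Lys(CUΨ36)-gRNA, directed at the anticodon of a lysine tRNA. The other group was transformed with control gRNAs. Both groups grew in synthetic dextrose medium that lacked leucine and uracil and were harvested in mid-log phase. The labels do not say whether the replicates of a group came from separate cultures, so p-values measure no more than how these samples differ, and that spread may be technical. They also do not say whether a group is 1 transformant or several.

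Ribosome profiling sequences the short stretches of mRNA that a ribosome shields from nuclease, so the footprint count of a gene depends on both its mRNA level and the density of ribosomes on it. Box H/ACA guide RNAs base-pair with an RNA and lead a pseudouridine synthase to a chosen uridine. In yeast, the transcription factor Gcn4 raises the transcription of many amino acid synthesis genes, and translation of its own mRNA is held down by upstream reading frames. The release of that control when amino acids are short, or when the kinase Gcn2 acts on the initiation factor eIF2, is known as general amino acid control.

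The footprint libraries held 11849950 and 8080039 reads in genes for the control group and 15253540 and 14163627 for the targeted group. Transposon rows with gag in their description, 91 of 6016, held 20.6 to 23.2% of these counts. A read shared between copies may be counted more than once in this share, since its treatment is not known. Across genes, Pearson r between replicates was 0.995 in each group (log2 of CPM, read counts scaled to the library total). The control pair differed by a chi-square per degree of freedom of 5.22 and the targeted pair by 14.2, both above sampling noise, so each library was counted as 1 replicate. With the gag rows left out the values were 3.13 and 10.4. MET17, which is deleted in BY4741, had 0 footprint reads in every library, which allows up to 3. Genes that mark the a mating type summed to 1745 to 1920 CPM and those of the alpha type to 4.27 to 7.89 CPM.

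Footprints of a small set of genes, most of them enzymes of amino acid synthesis, were higher in targeted cells. Calls were made for 32 of 5461 genes as higher and for 0 as lower (edgeR quasi-likelihood test, Benjamini-Hochberg adjusted p under 0.05), that is 0.586% and 0% of the tested genes. Of these 32 genes, 19 belong to a list of 65 Gcn4 targets of amino acid synthesis. Their folds ran from 1.3 to 1.95 with a median of 1.48, and their SE from 0.07 to 0.14 on the log2 scale. At an unadjusted p under 0.05, 169 genes were higher (3.09%) and 79 lower (1.45%), 248 in all (4.54%), against 273 that this threshold would give with no difference. By DESeq2 36 genes were higher (0.983%) and 2 lower (0.0546%) of the 3661 it gave an adjusted p, and by limma-voom 32 (0.586%) and 0 (0%). The 2 genes lower by DESeq2 were LEU2 and IMD2, with adjusted p of 0.000131 and 0.0490. In all 32 called genes both targeted libraries lay above both control libraries, as they did in 16.1% of all tested genes. The median absolute difference between replicates over the called genes was 0.05 on the log2 scale in each group.

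The called genes lay on 13 chromosomes and were mostly well translated. Their median in the authors' footprint RPKM, reads scaled to coding length and library total, was 76.8, against 21.5 over all tested genes, and 31 of the 32 were above that median. Precision moved with the level. Below a mean of 10 CPM the median SE was 0.22 and none of 1066 genes was called. From 10 to 50 CPM 6 of 2590 were called, from 50 to 200 CPM 16 of 1160, and from 200 to 1000 CPM 10 of 438. Above 1000 CPM, 0 of 207 were called. Of 113 genes that differed by at least 0.5 on the log2 scale 20 were called, and of the 14 with a mean of at least 50 CPM all 14 were.

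**Figure D1:**
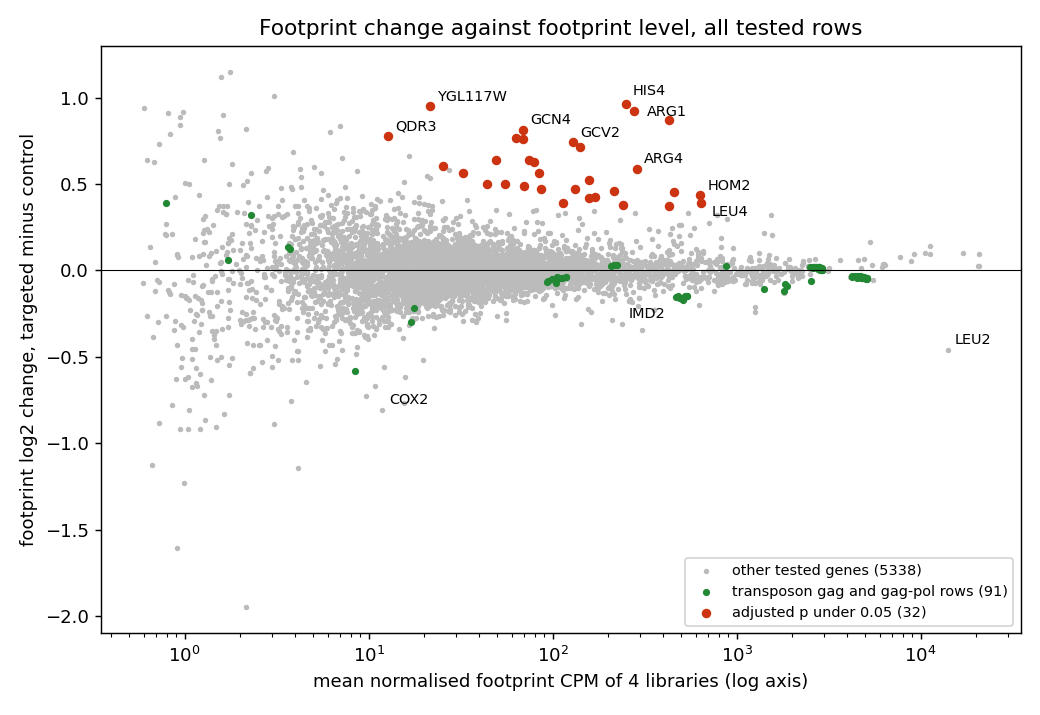
Log2 footprint change (targeted minus control, y axis) against mean normalised footprint CPM (x axis, log scale) for the 5461 tested genes, 1 point per gene, with called genes, gag rows and other genes in different colours. The 32 called genes all lie above 0, between 0.37 and 0.96 on the log2 scale.

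Leaving out the gag rows kept the pattern and added calls, mostly among strongly translated genes. Without them 5364 genes were tested, 35 were called higher (0.652%) and 1 lower (0.0186%), and all 32 genes called with them were called again. The log2 change of a called gene moved by at most 0.00166. None was called only with the gag rows, and 4 were called only without them, namely LEU1, ILV2 and YOR302W as higher and LEU2 as lower. The gag rows were among the most abundant, 59 of 91 above 1000 CPM, where only 148 other genes lay. The median SE of those 148 genes was 0.076 with the gag rows in the fit and 0.063 without them. From 10 to 50 CPM, where YOR302W lay, the median SE was 0.1095 with the gag rows and 0.11 without them. The gag rows themselves ran from -0.58 to 0.39 in log2 change with a median of -0.04, and 2 of 91 had an unadjusted p under 0.05 (lowest edgeR adjusted p of 0.521). They followed the library rather than the group: 89 of 91 were higher in control replicate 1 than in control replicate 2, and all 91 were lower in targeted replicate 1 than in targeted replicate 2. Near-identical transposon copies share reads, so their rows are not separate measurements.

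In arginine synthesis 5 of 10 tested genes rose. All 10 lay above 0, with a median log2 change of 0.57 against -0.0013 over all tested genes. ARG1, argininosuccinate synthase, on chromosome 15 from 219211 to 220473 (R64, plus strand), had 187 and 195 normalised CPM in control libraries and 373 and 352 in targeted libraries. That is 1.90-fold higher (log2 0.93 ± 0.07 SE, edgeR adjusted p of 9e-05), and the targeted values were far above the control ones. ARG4, which cleaves argininosuccinate to arginine, had 235 and 225 CPM in control and 344 and 348 CPM in targeted libraries, 1.5-fold higher (0.59 ± 0.07, adjusted p of 0.00189). ARG7, ornithine acetyltransferase of the mitochondrial part of the pathway, had 105 and 107 CPM against 174 and 175 CPM, 1.64-fold higher (0.72 ± 0.07, adjusted p of 0.000945). In both genes the replicates were nearly equal within each group. ARG56, whose product carries the acetylglutamate kinase and reductase, was more scattered, with 63.1 and 73.5 CPM in control and 107 and 94.2 CPM in targeted cells (1.48-fold, adjusted p of 0.0209). The 5 members without a call ran from 0.18 to 0.58. Arginine breakdown and polyamine genes had 0 of 10 called and a median of 0.02, with CAR1 (arginase) at 0.07 ± 0.08 and SPE1 (ornithine decarboxylase) at 0.17 ± 0.07.

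YOR302W is the short upstream reading frame of the CPA1 mRNA and encodes the arginine attenuator peptide, which stalls ribosomes when arginine is plentiful. It lies on chromosome 15 from 882765 to 882842 (R64, plus strand). It had 161 and 97 footprint reads in control and 337 and 264 in targeted libraries, or 13.8 and 11.8 CPM against 21.8 and 19.0 CPM. The groups did not overlap, and the fold was 1.58 (log2 0.66 ± 0.13), with an edgeR adjusted p of 0.0551 with the gag rows and 0.0416 without them. Its RNA log2 change was 0.30 ± 0.18. Counts on so short a frame are uncertain where reads reach past its ends.

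In histidine synthesis, HIS4 and HIS5 rose, 2 of 6 tested genes of the list, whose median was 0.28. HIS4, which catalyses several steps of the pathway, lies on chromosome 3 from 65934 to 68333 (R64, minus strand) and showed the largest fold of all called genes. Its values were 162 and 176 CPM in control and 321 and 338 CPM in targeted libraries, 1.95-fold higher (log2 0.96 ± 0.07, edgeR adjusted p of 9e-05). HIS5, histidinol-phosphate aminotransferase, had 59.4 and 57.5 CPM against 95.1 and 87.0 CPM, 1.56-fold higher (0.64 ± 0.08, adjusted p of 0.00217). The groups were well apart in both genes. HIS1, the first enzyme of the pathway, did not pass in edgeR, at 142 and 155 CPM against 186 and 191 CPM (log2 0.35 ± 0.08, adjusted p of 0.104), and had an adjusted p of 0.0414 in DESeq2.

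Lysine synthesis is the pathway of the amino acid whose tRNA the second guide addressed. All 11 tested genes of lysine synthesis and uptake lay above 0, with a median of 0.33, and 3 were called, among them LYS20 and LYS2. LYS20, homocitrate synthase, had 184 and 178 CPM in control and 253 and 245 CPM in targeted libraries (1.38-fold, log2 0.46 ± 0.07, edgeR adjusted p of 0.0124). LYS2, the aminoadipate reductase, had 217 and 201 CPM against 268 and 274 CPM (1.3-fold, adjusted p of 0.0481). The groups did not overlap in either gene. Without control replicate 1 the adjusted p of LYS2 was 0.0501. Without control replicate 2 those of LYS20 and LYS2 were 0.0808 and 0.591, while their log2 changes were 0.43 and 0.32. LYS20 has a near-identical paralog, LYS21, and the treatment of reads shared between copies is not known here.

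Glycine cleavage and one-carbon metabolism held 4 called genes of 13, with a median of 0.15. GCV1 and GCV2, the T and P subunits of the mitochondrial glycine cleavage complex, had the largest changes of the list. GCV1 had 48.4 and 44.8 CPM in control and 74.4 and 85.0 CPM in targeted libraries (1.70-fold, log2 0.77 ± 0.09, edgeR adjusted p of 0.00178). GCV2 had 96.9 and 96.3 CPM against 148 and 176 CPM (1.67-fold, adjusted p of 0.00238). In both, targeted replicate 2 was the higher. SHM2, cytosolic serine hydroxymethyltransferase, which moves a one-carbon unit from serine to folate, had 388 and 379 CPM against 528 and 525 CPM (1.37-fold, adjusted p of 0.00884). MET13, methylenetetrahydrofolate reductase, which supplies the methyl group of methionine, had 115 and 106 CPM against 144 and 163 CPM (1.39-fold, adjusted p of 0.0314). Without control replicate 2 SHM2 and MET13 lost the call, at adjusted p of 0.0875 and 0.0810 with log2 changes of 0.44 and 0.41. The 9 members without a call had a median of 0.05.

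Aspartate-derived, aromatic and branched-chain amino acid synthesis held 5 genes called by edgeR. HOM3, aspartate kinase, had 128 and 131 CPM in control and 180 and 191 CPM in targeted libraries (1.44-fold, log2 0.52 ± 0.07, edgeR adjusted p of 0.00751). HOM2, aspartate-semialdehyde dehydrogenase, had 535 and 546 CPM against 723 and 742 CPM (1.35-fold, adjusted p of 0.0125). These were 2 of 9 tested genes from aspartate to threonine, all 9 above 0. ASN1, asparagine synthetase, passed in DESeq2 (adjusted p of 0.0252) and not in edgeR (0.165). ARO3 and ARO4, the 2 isoenzymes that start aromatic amino acid synthesis, had 147 and 143 against 199 and 189 CPM and 380 and 367 against 475 and 493 CPM. They were 1.34- and 1.3-fold higher, with adjusted p of 0.0252 and 0.0314, and were 2 called genes of 15. LEU4, isopropylmalate synthase of leucine synthesis, had 558 and 555 CPM against 717 and 740.5 CPM (1.31-fold, adjusted p of 0.0268). Within each of these genes the replicates lay close and the groups did not overlap. Without control replicate 1 the adjusted p of HOM2, ARO4 and LEU4 were 0.104, 0.123 and 0.164. Without control replicate 2 those of HOM2, ARO3, ARO4 and LEU4 were 0.0868, 0.118, 0.426 and 0.271.

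In edgeR with the gag rows, LEU4 was the 1 called gene of 12 in leucine, isoleucine and valine synthesis, all 12 above 0 with a median of 0.24. DESeq2 also called LEU1, ILV2 and ILV3, with adjusted p of 0.00327, 0.00414 and 0.0133. ILV2, acetolactate synthase, had 484 and 474 CPM in control and 613 and 595 CPM in targeted libraries (log2 0.34 ± 0.07, edgeR adjusted p of 0.0601, and 0.0319 without the gag rows). LEU1, isopropylmalate isomerase, had 1386 and 1331 CPM against 1686 and 1716 CPM (0.32 ± 0.07, adjusted p of 0.113, and 0.0281 without the gag rows). Both had groups that did not overlap. LEU2, which follows LEU1 in the pathway, is deleted in the parent strain and is commonly carried on plasmids, went the other way, with 16970 and 15470 CPM in control and 10870 and 12720 CPM in targeted libraries. URA3, also deleted in the parent strain and selected for by medium without uracil, was at -0.345 (mean of 304.8 CPM) and was not called. The groups of LEU2 did not overlap either. With the gag rows in the fit its SE was 0.110 and the adjusted p 0.165, and without them 0.080 and 0.0214, at a log2 difference of -0.46 in both. Without the gag rows LEU2 was thus called lower. With the gag rows, its difference was -0.58 without targeted replicate 2 (adjusted p of 0.00318) and -0.35 without targeted replicate 1 (adjusted p of 0.0867).

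GCN4 itself rose. On chromosome 5 from 138918 to 139763 (R64, minus strand), it had 42.4 and 58.1 CPM in control and 86.1 and 89.1 CPM in targeted libraries. The fold was 1.76 (log2 0.82 ± 0.12, edgeR adjusted p of 0.00863). The control libraries differed more from each other than in any other called gene shown in the plot of called genes, yet both lay below both targeted ones. The call held with any 1 library left out, with log2 changes from 0.59 without control replicate 1 to 1.05 without control replicate 2. Of 16 genes with known regulatory upstream frames, GCN4 and LEU4 were called and the median was 0.04. Genes of the Gcn2 pathway and eIF2, which act above GCN4, had 0 of 16 called, with a median of -0.04 and values from -0.10 to 0.09. GCN2, the kinase, had 48.4 and 45.3 CPM against 47.9 and 51.7 CPM, which overlap.

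**Figure D2:**
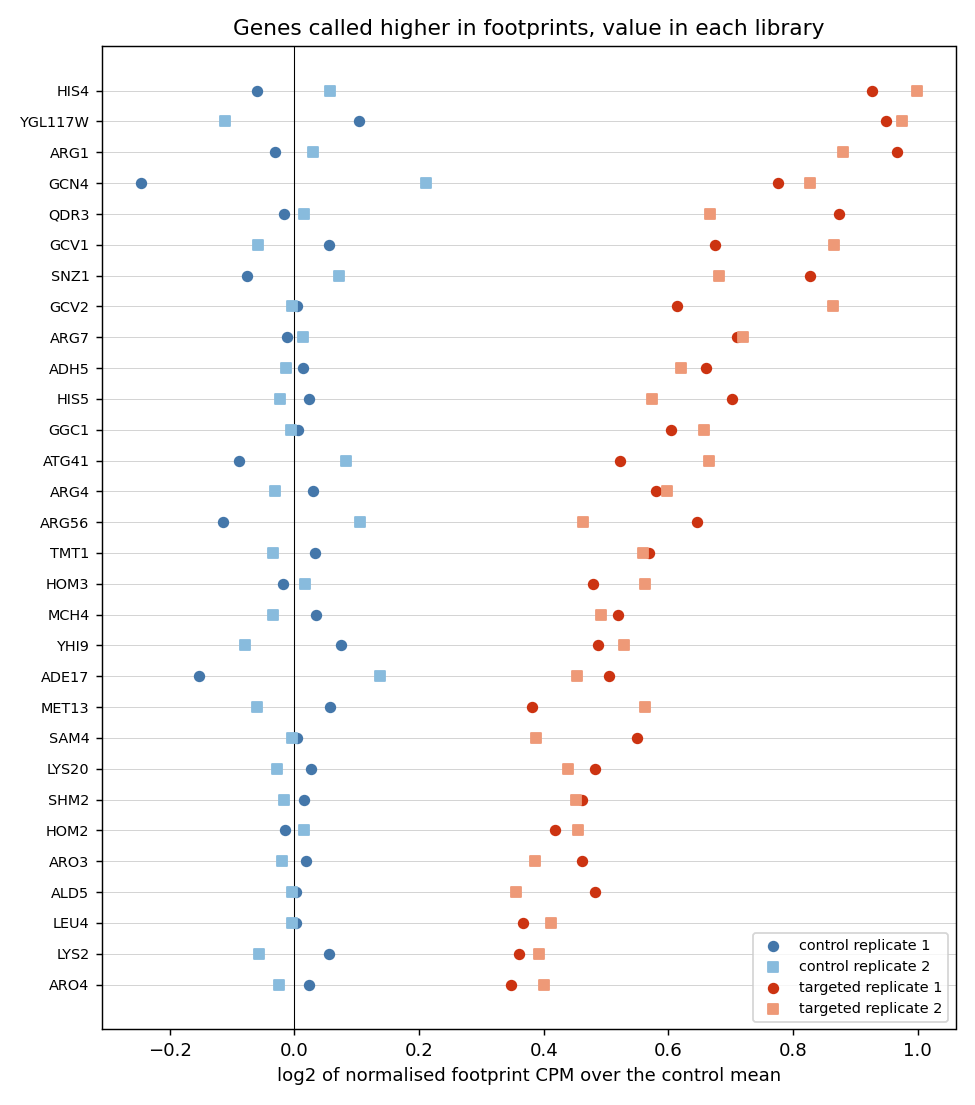
Normalised footprint CPM of the called genes in each of the 4 libraries, as log2 over the control mean (x axis), 1 row per gene and 1 marker per library. 30 of the 32 called genes are shown, and in each both targeted libraries lie to the right of both control libraries.

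The remaining 46 tested genes of the Gcn4 list did not pass in edgeR with the gag rows, and all 46 lay above 0, with a median of 0.23, where 49.4% of all tested genes did. In 40 of them both targeted libraries lay above both control libraries, as they did in 16.1% of all tested genes. Without the gag rows 1 of them, ILV2, was called, and DESeq2 called 5, namely ASN1, HIS1, ILV2, ILV3 and LYS21, the last named after its value was seen. The members of the list were chosen with earlier results of these data known, so these counts are a description. Over the whole list the share of footprints was 1.81 and 1.82% in control and 2.21 and 2.17% in targeted libraries. The 32 called genes took 0.455 and 0.472% in control and 0.684 and 0.670% in targeted cells. For arginine synthesis the shares were 0.0957 and 0.103% against 0.170 and 0.162%.

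Called genes outside amino acid synthesis included enzymes and carriers. SNZ1, of vitamin B6 synthesis, had 48.5 and 53.8 CPM in control and 90.8 and 82.0 CPM in targeted libraries (1.69-fold, log2 0.76 ± 0.08, edgeR adjusted p of 0.00178). GGC1, the mitochondrial carrier that exchanges GTP for GDP, had 62.7 and 62.2 CPM against 94.9 and 98.5 CPM (1.55-fold, adjusted p of 0.00178). ADH5, an alcohol dehydrogenase, had 39.1 and 38.3 CPM against 61.2 and 59.5 CPM (1.56-fold, adjusted p of 0.00278). In these 3 genes the replicates of a group lay within a narrow band and the groups were well apart. YGL117W, of unknown function, had 15.8 and 13.6 CPM against 28.4 and 28.9 CPM, 1.93-fold higher (adjusted p of 0.00189). QDR3, a plasma membrane multidrug transporter, had 9.26 and 9.46 CPM against 17.2 and 14.9 CPM, 1.72-fold higher (adjusted p of 0.0301), from 78 to 265 reads in a library. DESeq2 gave QDR3 no adjusted p.

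MCH4, which resembles monocarboxylate transporters, was at 47.0 and 44.8 CPM in control and 65.7 and 64.5 CPM in targeted libraries (1.42-fold, edgeR adjusted p of 0.0124). TMT1, the trans-aconitate methyltransferase, and SAM4, which makes methionine from S-adenosylmethionine and homocysteine, were 1.48- and 1.39-fold higher (both 0.0209). YHI9, of unknown function, was 1.42-fold higher (0.0301) and ADE17, of purine synthesis, 1.40-fold (0.0457). ATG41, of autophagy, and ALD5, a mitochondrial aldehyde dehydrogenase, were 1.52- and 1.34-fold higher (0.0311 and 0.0314); both fall outside the rule for naming genes and were chosen after their values were seen. In every one of these 7 genes the groups did not overlap. Without control replicate 1 the adjusted p of ADE17, ATG41 and ALD5 were 0.155, 0.0625 and 0.0628, and without control replicate 2 those of YHI9 and ALD5 were 0.0733 and 0.0895. ATG41 had an adjusted p of 0.0665 in DESeq2. SNZ1, ADH5 and ADE17 have paralogs, so the split of their reads is uncertain.

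With each library left out in turn, all 32 called genes kept their direction, and 19 kept the call in all 4 fits. Every call that ended did so when a control library was left out. In such a fit the spread comes from the targeted pair, which differed more than the control pair (chi-square per degree of freedom of 14.2 against 5.22). The 4 fits are therefore not equally strict. With scaling by library size only, 12 calls ended, among them those of ARG56, SAM4, ARO3, LEU4, QDR3, YHI9, ATG41, ALD5, ARO4, ADE17 and LYS2, at adjusted p from 0.05 to 0.138, while no log2 change of theirs moved by more than 0.00693.

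No gene passed as lower in edgeR with all rows and the filter on low counts. COX2, a subunit of cytochrome oxidase encoded on the mitochondrial genome (chromosome M, 73758 to 74513, R64), had 153 and 142 footprint reads in control and 120 and 131 in targeted libraries. As normalised CPM these were 13.1 and 17.2 against 7.77 and 9.41 (log2 -0.81 ± 0.17, edgeR adjusted p of 0.0761). COX2 was past the threshold without control replicate 1 (-1.01, adjusted p of 0.000135), without targeted replicate 1 (-0.67, 0.00900) and without targeted replicate 2 (-0.94, 0.00692), but not without control replicate 2 (-0.62, 0.173). IMD2, IMP dehydrogenase of GTP synthesis, had 257 and 270 CPM against 212 and 214 CPM (-0.31 ± 0.07, adjusted p of 0.129 in edgeR and 0.0490 in DESeq2). AGA1, the cell wall anchor of a-agglutinin, and TYE7, a transcription factor of glycolytic genes, were at -0.31 ± 0.08 and -0.29 ± 0.08 (adjusted p of 0.310 and 0.379). In these 4 genes the groups did not overlap. Of the 8 mitochondrially encoded proteins 7 lay below 0, with a median of -0.50. All 8 were lower in targeted replicate 1 than in targeted replicate 2 and lower in control replicate 1 than in control replicate 2, so the spread within the groups was large. They summed to 901 to 1271 reads in a library, so their precision is limited.

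Genes of the machinery that the guides and the stop codon involve did not pass. Of 15 box H/ACA and pseudouridine synthase genes 0 were called, with a median of 0.04. CBF5, the pseudouridine synthase of the box H/ACA complex, had 310 and 319 CPM in control and 321 and 287 CPM in targeted libraries, which overlap (log2 -0.05 ± 0.08). Of 21 genes of termination, nonsense-mediated decay and ribosome rescue 0 were called, with a median of -0.02 and 1 unadjusted p under 0.05. SUP45 and SUP35, the release factors, were at 0.02 ± 0.07 and -0.03 ± 0.07. Cytosolic aminoacyl-tRNA synthetases (0 of 22 called, median 0.02), elongation factors (0 of 11, median 0.02) and wobble uridine modification (0 of 16, median -0.02) had medians as close to 0. Targeted replicate 1 was above targeted replicate 2 for 13 of 15 box H/ACA and pseudouridine synthase genes and 14 of 16 wobble uridine genes. The medians of these lists were 0.12 and 0.09 without targeted replicate 2, and -0.06 and -0.14 without targeted replicate 1. For termination, synthetases and elongation factors it was above in 9 of 21, 10 of 22 and 5 of 11.

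Ribosomal protein and ribosome biogenesis genes separated the 2 targeted libraries from each other rather than the groups. Large subunit ribosomal proteins were higher in targeted replicate 1 than in targeted replicate 2 for 80 of 82 genes, small subunit ribosomal proteins for 57 of 57 and ribosome biogenesis genes for 75 of 78. In the control pair replicate 1 was the higher for 36 of 82, 28 of 57 and 31 of 78. Genes of the Msn2/4 stress response and of reserve carbohydrates went the other way, with 3 of 30 higher in targeted replicate 1 and a median difference of -0.36, as did glycolysis and fermentation with 1 of 21. None of these lists held a called gene, and their medians between the groups were -0.02, -0.02, -0.03, 0.02 and 0.07. Those of both ribosomal protein lists and of ribosome biogenesis were above 0 without targeted replicate 2 (0.05, 0.05 and 0.06) and below 0 without targeted replicate 1 (-0.10, -0.09 and -0.13). In glycolysis and fermentation 17 of 21 genes lay above 0, where 49.4% of all tested genes did. For 10 of the 21 both targeted libraries lay above both control libraries, as in 16.1% of all tested genes. The glycolysis median was 0.15 without targeted replicate 1 and -0.001 without targeted replicate 2. The Gcn4 list did not follow this split, with 37 of 65 higher in targeted replicate 1, a median difference of 0.01 and group medians of 0.29 to 0.32 without either targeted library. In the RNA of the same lysates targeted replicate 1 was likewise the higher for 82 of 82, 57 of 57 and 75 of 78 genes of the first 3 lists and for 4 of 29 stress genes. The part of this difference in the other results was not tested.

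**Figure D3:**
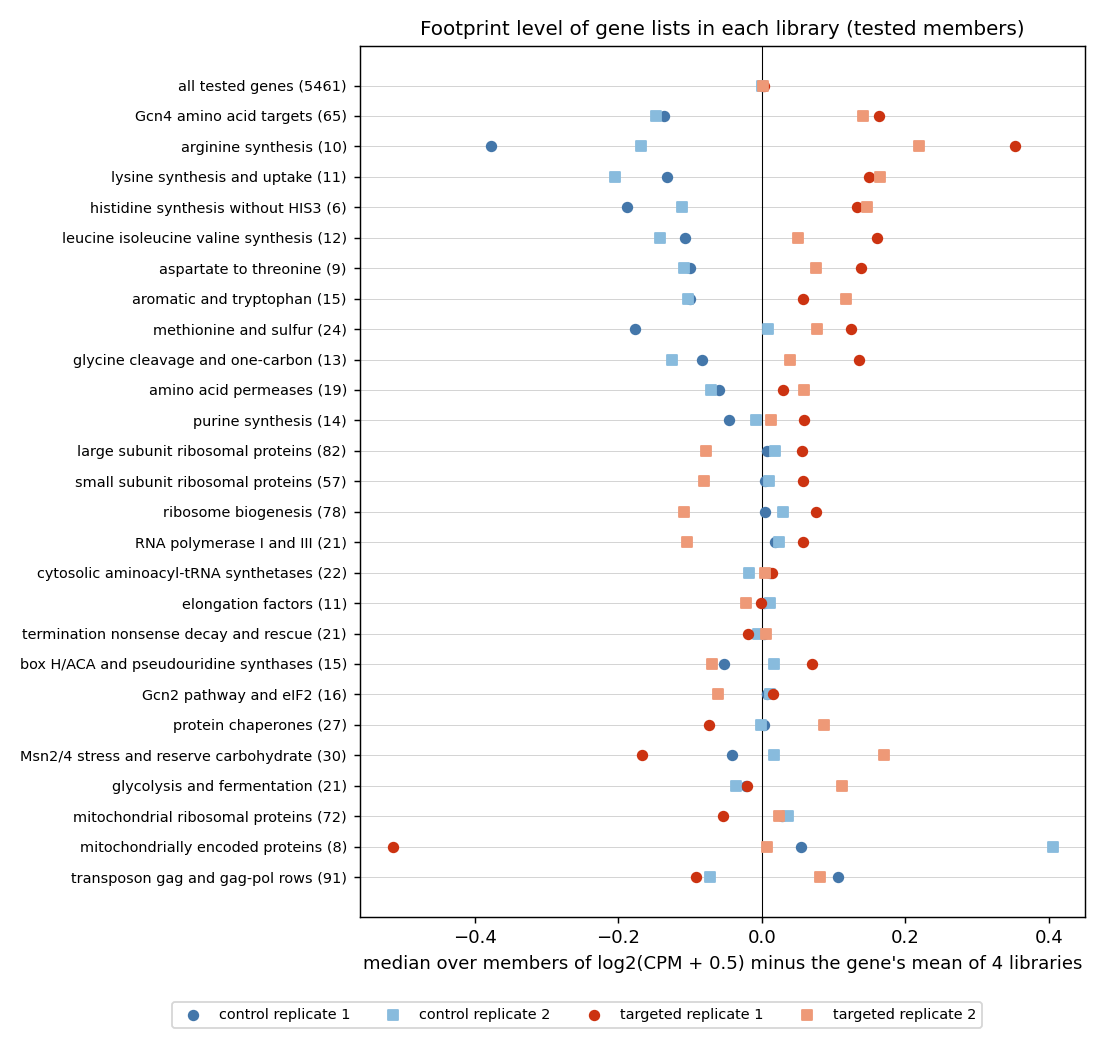
Median footprint level of each gene list in each library (x axis, log2(CPM + 0.5) minus the gene's mean over the 4 libraries), 1 row per list with the number of tested members, 1 marker per library. For the amino acid synthesis lists shown, from Gcn4 targets to glycine cleavage and one-carbon, both targeted libraries lie right of both control libraries, while for ribosomal protein and stress lists the 2 targeted libraries lie on opposite sides of the controls.

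Set beside the RNA of the same lysates, all 32 called genes had an RNA log2 change above 0, from 0.16 to 0.85, and 19 of them were called in RNA, where 21 of 5712 genes (0.368%) were called. Their median log2 change was 0.56 in footprints and 0.47 in RNA. The genes were picked by their footprint change, so a footprint value above the RNA value, as in 28 of 32, is read as nothing more than that. Tested gene by gene, 0 of 5665 genes (0%) differed between the footprint and the RNA change (edgeR interaction over 8 libraries, 105 or 1.85% at an unadjusted p under 0.05, and 0 with DESeq2 and with limma-voom). Gag rows held 69.8 to 72.9% of the RNA counts. How reads shared between copies were counted is not known, so what this share leaves for other genes is uncertain. In simulated counts the interaction test without a block found 31 of 50 genes planted at 1.5-fold and 27 of 50 at 0.667-fold. The planted genes all lay outside gag with a mean above 50 reads. The simulation used 1 spread per assay and drew RNA and footprints of a lysate independently. These rates are thus not those of all tested genes. The 0 calls therefore do not show that the changes were equal. With the lysate as a block in the model, 6 passed (0.106%), 1 higher (0.0177%) and 5 lower (0.0883%). The higher one was GCN4, whose RNA was 210 and 228 CPM in control and 245 and 243 CPM in targeted libraries (log2 0.16 ± 0.07). Its footprint change exceeded its RNA change by 0.66 ± 0.15 without the block and by 0.67 ± 0.09 with it (adjusted p of 6.52e-05). The 5 lower ones were the mitochondrial rows COX2, Q0255, COX1, AI4 and AI5_ALPHA. Q0255 overlaps COX2, and AI4 and AI5_ALPHA overlap COX1, so these rows may share reads. COX2 was at -0.73 ± 0.12 (adjusted p of 0.00346). HIS4 shows the more common case, with 74.5 and 76.9 RNA CPM in control and 124 and 133 RNA CPM in targeted libraries, an RNA log2 change of 0.76 ± 0.07.

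**Figure D4:**
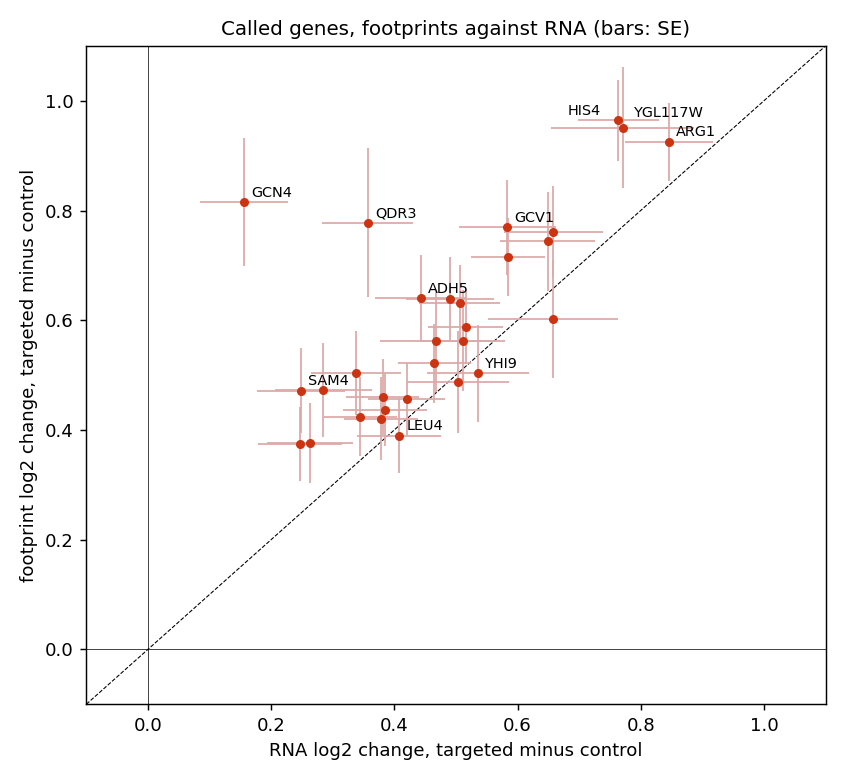
Footprint log2 change (y axis) against RNA log2 change (x axis), targeted minus control, for the called genes, with SE bars and the line of equal change. 30 of the 32 called genes are shown, all above 0 on both axes, and GCN4 lies farthest above the line at 0.82 in footprints and 0.16 in RNA.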

How the data were processed

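Footprint and RNA counts came from 1 deposited table of whole reads per gene, with a column per library. The submitters' processing notes name cutadapt, STAR and build R64, without versions. Which tool counted, whether by strand, and what was done with multi-mapping reads are not given in the sources, so values of paralogs and overlapping genes are uncertain. The deposited RPKM of the authors served only to compare levels between genes. The 8 per-library ratio and RNA RPKM columns were not used. Locus tags of 6013 of 6016 rows matched the RefSeq gene table (R64).

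The test was that of edgeR 4.0.16 under R 4.3.3 (quasi-likelihood, TMM scaling, filterByExpr, two-sided, threshold 0.05, adjusted over all tested genes) in the 4 footprint libraries, with DESeq2 1.42.0 and limma 3.58.1 (voom) as alternatives. SE is the absolute log2 change over the square root of F. Normalised CPM use the TMM factors. The scripts were tested on simulated data. The members and lists were chosen with earlier results of these data known. Genes were named by a rule: up to 25 called genes per sign by p (or the 5 of smallest p, from 10 CPM upward and with groups apart, where fewer than 5 are called), up to 4 members of smallest p per list, a fixed list, and genes called only with or only without gag rows. Of the called genes, 2 are left unreported, and many list members that the rule takes are not named in the text.

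The labels' protocols take RNA and footprints from aliquots of the same lysate, so the interaction was also fitted with the lysate as a replicate block. Deviations of such pairs from their group means had r of 0.375 (control) and 0.367 (targeted).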

Additional observations from a re-analysis of the deposited data

How the results depend on the processing

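With 2 libraries per group, calls moved with the setting more than fold changes did. The 32 higher calls became 35 without gag rows, 20 with library size only, 37 with a stricter filter of 10 CPM, 36 with none, and 27 to 103 with 1 library left out. The 0 lower calls became 1 without gag rows (LEU2), 1 with no filter (COX2), 2 with DESeq2, and 3 (ZRT1, YGL088W and IRC13, without control replicate 2) to 56 with 1 library left out. The 0 genes whose footprint and RNA changes differed became 6 with the replicate block and 0 to 2 with 1 library left out (YGL088W and YJL047C-A, without targeted replicate 2). ZRT1, IRC13, YGL088W and YJL047C-A were named after their values were seen. A fit without 1 library takes its spread from the remaining pairs and assumes that the lone sample varies alike. With the footprint number as a replicate block, 48 genes were higher and 12 lower. The deviations of same-numbered libraries correlated with r of -0.126, and of -0.209 for genes with a mean of at least 50 CPM. With 2 libraries per group this r compares 1 difference per group across genes, so it cannot decide whether the numbers pair them. The crossed pairing, added after seeing the data, gave 38 higher and 1 lower. All 32 called genes kept their direction under every setting run. Genes near 0 did not always, such as CBF5, at -0.05 and at 0.03 without targeted replicate 2.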

Other observations

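Of 19 tested amino acid permeases 0 were called by edgeR, with a median footprint log2 change of 0.08. Of these 15 lay above 0, 10 had groups apart and higher in targeted cells, and 4 had an unadjusted p under 0.05. Over all tested genes these shares were 49.4%, 16.1% and 4.54%. PUT4, the proline permease, had the largest value, 1.01 ± 0.30 (edgeR adjusted p of 0.499), from 27 and 14 reads in control and 55 and 66 in targeted libraries. Methionine and sulfur genes had 1 of 24 called and a median of 0.22, which was 0.04 without control replicate 1 and 0.36 without control replicate 2. Purine synthesis genes were split, with ADE17 called higher and IMD2 and IMD4, isoforms of IMP dehydrogenase, at -0.31 ± 0.07 and -0.23 ± 0.07 (adjusted p of 0.129 and 0.629).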
